A study of Mus musculus with 6 samples.

Results

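Plag1, Lin28b, the IGF2BP family and their partners are grouped here as oncofetal genes. Such genes are active in the embryo, mostly quiet in adult tissue and switched on again in some tumours. The 10 genes followed here were Plag1 and its relatives Plagl1 and Plagl2, the growth factor gene Igf2, the RNA-binding genes Igf2bp1, Igf2bp2, Igf2bp3 and Lin28b, and the let-7-controlled genes Hmga2 and Arid3a. Each was represented by the probe set carrying its symbol alone, and of several by the one with the highest mean over the arrays. Of the 10 genes 9 were measured, out of 19938 genes in all, and Igf2bp2 was not analysed here. Not all were dim before lymphoma. In premalignant cells Plagl2, Arid3a and Igf2bp3 had mean signals of 10.41, 9.98 and 9.88 (log2), above the median of all values, 6.83. Plag1 was chosen by its measured difference between the lymphomas of the 2 hairpins, so its values are given as a description with no test, and no difference of any of the 9 genes between the hairpins was tested. The other 8 were tested against premalignant cells. They too were chosen with earlier results of these data known, so these tests may not be independent of that choice.

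The 6 arrays measured total RNA from B cells of Eµ-Myc mice, which carry a Myc transgene under the enhancer of the immunoglobulin heavy chain, active in B lineage cells, and every group had it. The premalignant group held splenic B cells sorted before lymphoma from 2 independent preparations. The other groups held primary lymphomas with a short hairpin RNA that targets Ezh2. EZH2 is the polycomb enzyme that methylates histone H3 to keep genes silent. The hairpin was shEzh2.781 on 2 arrays and shEzh2.556 on 2. CD43 beads were used to deplete other cells from the lymphomas, and nearly all remaining cells were stated to carry B220 and GFP. The sources used here give neither age nor strain. Nor do the labels say whether both arrays of a hairpin are lymphomas of separate mice, so the p-values rest on a spread between samples that may be technical. All 4 lymphoma arrays carry a hairpin against Ezh2. Malignancy, the hairpin and the way the cells were prepared therefore cannot be told apart.

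PLAG1 is a zinc finger transcription factor best known as a driver of salivary gland adenomas and as an activator of the IGF2 promoter. IGF2BP proteins bind and stabilise messenger RNAs, Igf2 among them. LIN28B binds let-7 precursors and blocks their maturation, and let-7 in turn represses Hmga2, Arid3a, Igf2bp and Lin28b transcripts. In the blood system Lin28b, Igf2bp3 and Arid3a are known for their activity in fetal and neonatal B cell development.

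The let-7 microRNAs are shown because they are what LIN28B acts on and what several of the other genes answer to. RefSeq (GRCm38.p6) held 9 mature let-7 family names from 11 loci, and all 9 shared 1 seed (bases 2 to 8, in capitals). The sequences below are 5 of the 9, written 5′ to 3′. They differ from let-7a at 0 to 4 of their 22 bases, all outside the seed.
mmu-let-7a-5p: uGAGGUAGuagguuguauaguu
mmu-let-7d-5p: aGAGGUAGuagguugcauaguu
mmu-let-7g-5p: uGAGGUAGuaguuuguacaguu
mmu-let-7i-5p: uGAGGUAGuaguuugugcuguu
mmu-miR-98-5p: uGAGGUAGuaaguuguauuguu

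Upstream sequence is shown for Lin28b and Igf2bp3, the 2 tested genes that were called higher in shEzh2.781 lymphomas. RefSeq windows (GRCm38.p6) matched 6 of the 10 genes, in 9 windows of 250 bases before a transcript start. The E-box CACGTG, the palindromic hexamer that MYC and MAX bind, is in capitals. It was looked for after the sequences had been seen, and each strand reads the same. The Igf2bp3 window lies at chr6:49214955-49215204 on the minus strand, and the Lin28b window at chr10:45470202-45470451 on the minus strand. Both lie inside the annotated span of their gene, which reaches to base 49215469 for Igf2bp3 and 45486314 for Lin28b. Each window therefore precedes a transcript start that is not the outermost one.
Igf2bp3: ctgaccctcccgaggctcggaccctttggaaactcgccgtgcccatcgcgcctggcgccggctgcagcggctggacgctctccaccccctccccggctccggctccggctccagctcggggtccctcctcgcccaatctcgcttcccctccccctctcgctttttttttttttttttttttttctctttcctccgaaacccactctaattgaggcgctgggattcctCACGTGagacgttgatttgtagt
Lin28b: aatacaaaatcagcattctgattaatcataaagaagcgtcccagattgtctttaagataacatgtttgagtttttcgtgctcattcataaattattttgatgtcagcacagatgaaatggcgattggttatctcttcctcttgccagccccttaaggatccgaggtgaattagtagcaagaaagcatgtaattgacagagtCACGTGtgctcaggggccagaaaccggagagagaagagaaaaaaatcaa

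The hexamer began 23 bases before the start in Igf2bp3 and 49 bases before it in Lin28b. It also occurred once upstream of Plagl1, 182 bases before the start, which made 3 of the 9 windows, beside 6.02% of all 32851 windows of that length. A match to the PLAG1 consensus occurred in 3 of the 9 windows as well, upstream of Igf2, Plagl1 and Igf2bp2, beside 16.8% of all windows. These matches describe the letters of the windows and no binding was measured.

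All arrays gave values on a log2 scale, with array medians over all probe sets between 6.75 and 6.91. The targeted gene Ezh2 had signals of 12.64 and 12.70 in premalignant cells, 10.92 and 11.07 in shEzh2.781 lymphomas and 11.20 and 11.30 in shEzh2.556 lymphomas. It was lower by 1.68 (log2) with shEzh2.781 (adjusted p = 3.43e-06) and by 1.42 with shEzh2.556 (adjusted p = 6.74e-06). Here and throughout, tests are from a limma fit over all 19938 genes with Benjamini-Hochberg adjustment, and a gene is called at an adjusted p under 0.05. Of markers fitting the labelled cells, the 19 measured B lineage genes had a mean signal of 11.62 to 11.68 in premalignant cells, 11.20 to 11.24 in shEzh2.781 and 11.00 to 11.02 in shEzh2.556 lymphomas. The mean of 18 neutrophil markers was 8.69 to 8.95 in premalignant cells, 7.64 to 8.21 with shEzh2.781 and 6.14 to 6.70 with shEzh2.556. That of 9 erythroid markers was 8.42 to 8.65, 6.80 to 7.42 and 8.06 to 8.53 in the same order. That of 18 stromal and epithelial markers, among them saliva protein genes such as Mucl2, was 6.33 to 6.66, 6.72 to 6.77 and 7.77 to 7.98. Between the hairpins 15 of the 18 neutrophil markers were called higher with shEzh2.781, and 8 of the 9 erythroid and 5 of the 18 stromal and epithelial markers lower. The part of these other cells in the results below was not tested. In bulk RNA fewer cells of a type and less RNA per cell cannot be told apart.

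Of the 9 genes Plag1 differed most between groups, and lay on opposite sides of premalignant cells in the lymphomas of the 2 hairpins. Its signal was 6.94 and 6.72 in premalignant cells, 7.68 and 7.89 in shEzh2.781 lymphomas and 5.24 and 5.11 in shEzh2.556 lymphomas. Both shEzh2.781 arrays lay above and both shEzh2.556 arrays below the premalignant pair, and no groups overlapped. Group means were 6.83 ± 0.16, 7.79 ± 0.15 and 5.18 ± 0.09 (SD, n = 2 each). Relative to premalignant cells Plag1 was 0.96 higher (log2, SE 0.13, 1.94-fold) with shEzh2.781 and 1.65 lower (SE 0.13, 3.14-fold) with shEzh2.556. Its shEzh2.556 signals lay below the median of all values, 6.83, and whether they lie above background was not tested. The difference between hairpins was 2.61 (SE 0.13, 6.10-fold). Plag1 was chosen by this difference, so its size, its rank and the ranges that follow are description and give no support. By size in that direction the difference ranked 9 among the 19938 genes. Leaving out any 1 array gave 2.50 to 2.71, and other processing settings 2.61 to 2.72. Averaged over both hairpins the opposite signs left a difference of -0.35 from premalignant cells. Of all genes 2.43% had both shEzh2.781 arrays above and both shEzh2.556 arrays below the premalignant arrays, as Plag1 did.

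**Figure D1:**
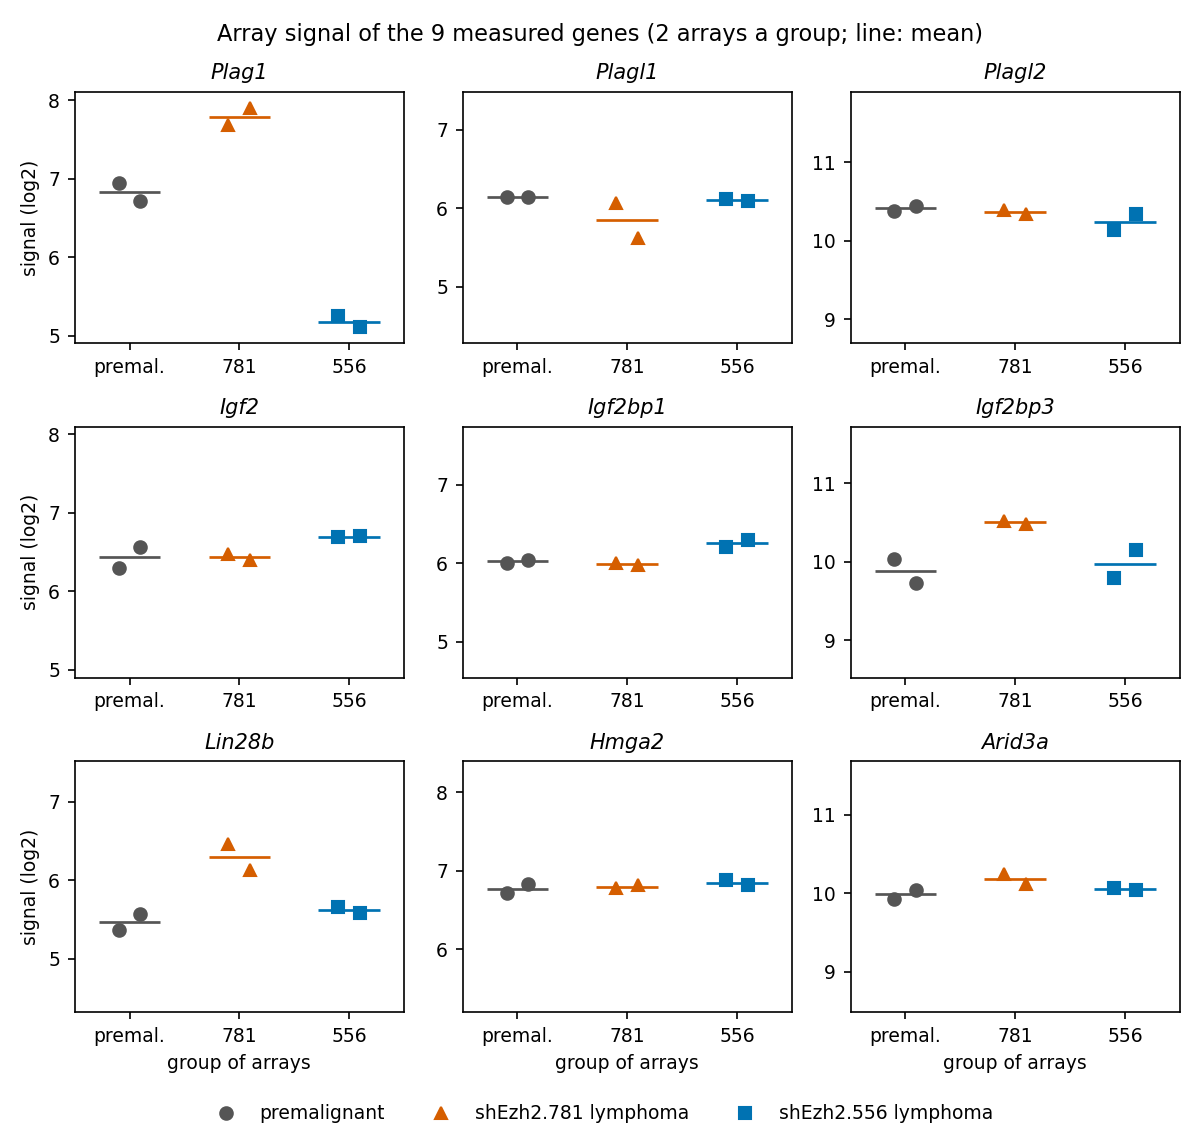
Signal (log2, vertical axis, the same span in each panel) of the 9 measured genes on each of the 6 arrays, grouped as premalignant, shEzh2.781 and shEzh2.556. Points are arrays and lines are means of 2 arrays. The group means of Plag1 range from 5.18 to 7.79, while Lin28b and Igf2bp3 stand higher in the shEzh2.781 lymphomas.

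The relatives of Plag1 did not share its pattern of values. Plagl1, also called Zac1, is an imprinted zinc finger gene known to restrain growth. Its signal was 6.13 on both premalignant arrays, 6.06 and 5.62 with shEzh2.781 and 6.11 and 6.09 with shEzh2.556, where the shEzh2.781 arrays spread by more than the groups differed. Its difference from premalignant cells was -0.29 with shEzh2.781 (adjusted p = 0.252) and -0.03 with shEzh2.556 (adjusted p = 0.883). Plagl2, a close relative of Plag1 in its zinc fingers, had signals of 10.37 and 10.44 in premalignant cells, 10.39 and 10.33 with shEzh2.781 and 10.14 and 10.34 with shEzh2.556. Its differences were -0.05 (adjusted p = 0.880) and -0.17 (adjusted p = 0.318), within the overlap of the arrays in the first case. The difference between hairpins was 0.12 for Plagl2 and -0.26 for Plagl1, beside 2.61 for Plag1.

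Lin28b was higher in shEzh2.781 lymphomas. Its signal was 5.37 and 5.58 in premalignant cells, 6.47 and 6.13 with shEzh2.781 and 5.67 and 5.59 with shEzh2.556. The shEzh2.781 arrays lay above all others, and the shEzh2.556 arrays lay only just above the premalignant pair. The rise with shEzh2.781 was 0.82 (log2, SE 0.14, 1.77-fold, adjusted p = 0.00216) and passed the test in all 13 alternatives run. With shEzh2.556 the difference was 0.15 (adjusted p = 0.438). Between hairpins Lin28b stood 0.67 apart, an untested difference. The mean over both hairpins was 0.49 higher than in premalignant cells (SE 0.12, adjusted p = 0.0148). That call was lost without premalignant array 1 (0.39, adjusted p = 0.161) and with the 4 lymphomas fitted as 1 group (adjusted p = 0.328). The signal of Lin28b lay below the median of all values on every array. No detection p was used here, so whether low signal lies above background was not tested. The paralog Lin28a, looked at because it shares the let-7 precursor-binding role, had signals of 6.90 and 7.20, 6.95 and 6.84, and 7.14 and 7.07 in the same group order, with overlapping ranges and a difference of -0.16 with shEzh2.781 (adjusted p = 0.560).

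Igf2bp3, the IGF2BP family member most tied to fetal B lymphopoiesis and to leukaemia, was also higher in shEzh2.781 lymphomas. Its signal was 10.04 and 9.73 in premalignant cells, 10.53 and 10.49 with shEzh2.781 and 9.80 and 10.15 with shEzh2.556. The shEzh2.556 arrays overlapped the premalignant pair and the shEzh2.781 arrays did not. The rise with shEzh2.781 was 0.62 (log2, SE 0.15, 1.54-fold, adjusted p = 0.0164). It passed the test in 13 of 14 alternatives and was lost without premalignant array 2 (0.47, adjusted p = 0.169). With shEzh2.556 the difference was 0.10 (adjusted p = 0.658). Over both hairpins it was 0.36 (adjusted p = 0.0812), which passed under quantile normalization (adjusted p = 0.039), with a variance trend (adjusted p = 0.0458) and without shEzh2.556 array 1 (adjusted p = 0.0395). The difference between hairpins was 0.53, untested.

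Igf2bp1 and the ligand gene Igf2 did not pass the test in any comparison with premalignant cells. Igf2bp1 had signals of 6.001 and 6.05 in premalignant cells, 5.999 and 5.98 with shEzh2.781 and 6.21 and 6.30 with shEzh2.556. Its differences were -0.03 (adjusted p = 0.914) and 0.23 (adjusted p = 0.161). A second probe set of Igf2bp1 with a lower mean read 4.79 and 4.92, 4.81 and 4.74, and 4.92 and 4.92, where the shEzh2.556 arrays again lay above the premalignant pair, by a smaller margin. Igf2 had signals of 6.30 and 6.57 in premalignant cells, 6.48 and 6.40 with shEzh2.781 and 6.69 and 6.70 with shEzh2.556. Its differences were 0.01 (adjusted p = 0.988) and 0.27 (adjusted p = 0.150). Igf2, the gene whose promoter PLAG1 is known to activate, was 0.26 lower with shEzh2.781 than with shEzh2.556, while Plag1 was 2.61 higher with shEzh2.781. Under quantile normalization the Igf2 difference was -0.09. The difference of Igf2bp1 between hairpins went from -0.26 to -0.08.

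The let-7-controlled Hmga2 and Arid3a did not pass the test in either hairpin group. Hmga2, a chromatin architectural gene of stem and embryonic cells, had signals of 6.72 and 6.83, 6.78 and 6.81, and 6.88 and 6.82 in the same group order. Its differences from premalignant cells were 0.02 with shEzh2.781 (adjusted p = 0.945) and 0.08 with shEzh2.556 (adjusted p = 0.645), and its sign between hairpins turned from -0.05 to 0.10 under quantile normalization. Arid3a, a B cell transcription factor that favours fetal-type lymphopoiesis, had signals of 9.92 and 10.04, 10.24 and 10.12, and 10.07 and 10.04. Its differences were 0.19 (adjusted p = 0.365) and 0.07 (adjusted p = 0.671). Both shEzh2.781 arrays lay above the premalignant pair, by less than the test could call.

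Counted over the 8 tested genes, 2 were called higher and 0 lower with shEzh2.781, beside 10.8% of all genes called in either direction. With shEzh2.556 limma called 0 of 8, with 0 at an unadjusted p under 0.05, beside 18.2% of all genes. For lymphomas of both hairpins together 1 of 8 was called higher and 0 lower, beside 15.2% of all genes, 5.60% higher and 9.61% lower. The median difference of the 8 was 0.01 with shEzh2.781, 0.09 with shEzh2.556 and 0.12 for both, beside -0.03, 0.07 and 0.03 over all genes. Between shEzh2.781 and premalignant arrays 6 of the 9 measured genes did not overlap, beside 50.7% of all genes. Between shEzh2.556 and premalignant arrays it was again 6 of 9, beside 62.3%, and between the hairpins 8 of 9, beside 65.2%. These counts, over 9 genes, are given as a description. A filter on low signal kept 4 of the 9, namely Plag1, Plagl2, Igf2bp3 and Arid3a, and Plag1 passed it through 3 arrays, premalignant array 1 and both of shEzh2.781. Centring each array on its median moved the median of all genes by 0.12 for shEzh2.781 against premalignant cells and by 0.11 between hairpins. Differences of that size, such as those of Plagl2 and Hmga2, therefore depend on how the arrays are scaled.

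**Figure D2:**
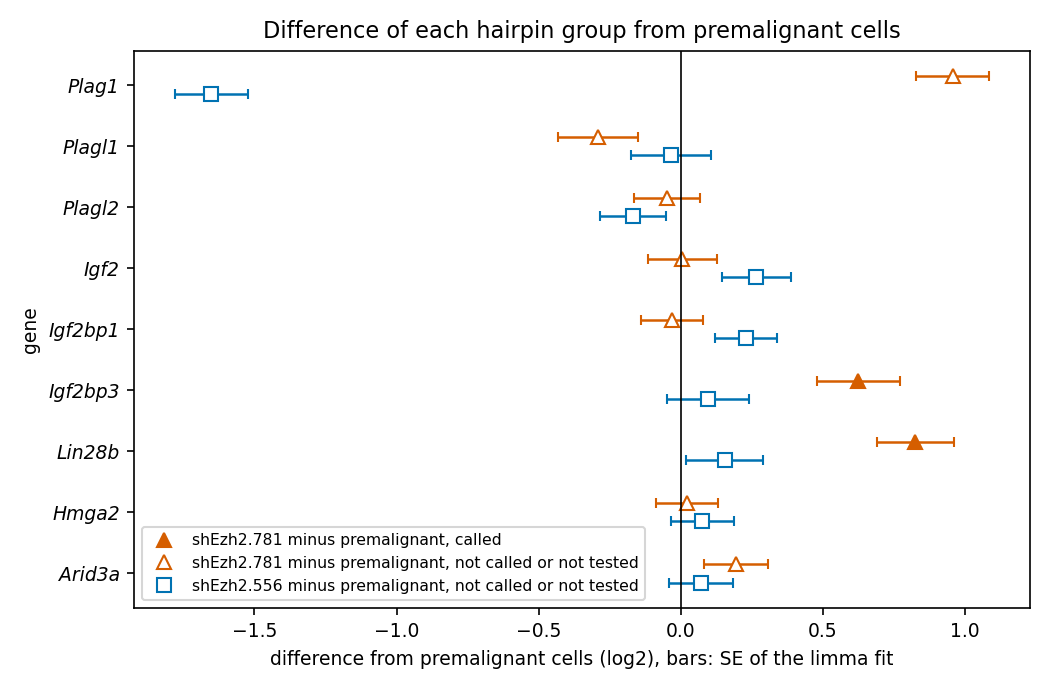
Difference of each gene from premalignant cells (log2, horizontal axis) in shEzh2.781 (triangles) and shEzh2.556 (squares) lymphomas, with bars for the SE of the limma fit. Filled symbols passed the test and open ones did not or, for Plag1, were not tested. Lin28b at 0.82 and Igf2bp3 at 0.62 are the filled ones, and Plag1 lies at 0.96 and -1.65.

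Genes listed as reported targets of the PLAG factors were followed next to Plag1. Of 16 listed, 11 were measured beside Igf2. Between the hairpins 3 were called higher with shEzh2.781 and 1 lower, beside 5.50% and 4.53% of all genes. With median centring those all-gene counts went from 1097 higher and 903 lower to 2242 and 453. The 3 were the angiogenic factor Vegfa, the mitochondrial cell death and mitophagy gene Bnip3 and the ephrin ligand Efnb1, and the lower one was Grb10, an imprinted adaptor that dampens insulin and IGF signalling. Vegfa had signals of 8.62 and 8.65 in premalignant cells, 9.66 and 9.38 with shEzh2.781 and 8.74 and 8.71 with shEzh2.556. The shEzh2.781 arrays stood highest, by 0.88 (SE 0.12, adjusted p = 0.000628) from premalignant cells and 0.79 (adjusted p = 0.00256) from shEzh2.556. Bnip3 had signals of 9.41 and 8.76, 8.34 and 8.43, and 7.13 and 7.20. It was below premalignant cells with either hairpin, by 0.70 with shEzh2.781 (adjusted p = 0.0225, lost without premalignant array 1 at adjusted p = 0.116 and under median centring at 0.0667) and by 1.92 with shEzh2.556 (adjusted p = 1.59e-05), and the hairpins differed by 1.22 (adjusted p = 0.00143). Efnb1 was lower by 0.72 with shEzh2.556 (adjusted p = 0.00167) and stood 0.56 higher with shEzh2.781 than with shEzh2.556 (adjusted p = 0.0174), a call lost without shEzh2.781 array 2 or shEzh2.556 array 2 (adjusted p = 0.0789 and 0.0934). Against premalignant cells 2 of the 11 were called higher over both hairpins, Vegfa and the cell cycle inhibitor gene Cdkn1c, and 3 lower, Bnip3, Efnb1 and the imprinted Peg10. Leaving out 1 array gave 0 to 2 higher, with 0 without premalignant array 1 or without array 2, and 2 to 3 lower. With the 4 lymphomas fitted as 1 group 0 were called in either direction. The 11 had a median difference between hairpins of -0.01, beside -0.07 over all genes.

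Of the IGF signalling genes, the receptor followed the order of Plag1 in its group means. Igf1r, the receptor tyrosine kinase for IGF1 and IGF2 and also a reported let-7 target, had signals of 8.76 and 8.68 in premalignant cells, 10.20 and 10.06 with shEzh2.781 and 7.89 and 8.51 with shEzh2.556. It rose by 1.41 with shEzh2.781 (SE 0.17, adjusted p = 0.000262). With shEzh2.556 its difference was -0.52 (adjusted p = 0.0561). The hairpins differed by 1.93 (SE 0.17, adjusted p = 6.35e-05), which passed the test in all 14 alternatives. Igfbp7, a secreted IGF-binding protein also made by stromal and endothelial cells, went the other way, with 7.96 and 8.50 in premalignant cells, 8.72 and 8.39 with shEzh2.781 and 10.09 and 10.22 with shEzh2.556. It was 1.93 higher with shEzh2.556 (adjusted p = 1.5e-05) and shEzh2.781 minus shEzh2.556 was -1.60 (adjusted p = 0.000238). The mean of the stromal and epithelial markers, given above, was also highest with shEzh2.556, and their part in the Igfbp7 value was not tested. That list includes saliva protein genes. From premalignant cells to shEzh2.556 Mucl2 went from 4.03 to 11.18, Bpifa2 from 5.37 to 11.57 and Dcpp3 from 5.34 to 10.85. The collagen gene Col1a1 went from 8.49 to 7.98, Cdh5 from 7.68 to 7.55 and Pecam1 from 9.98 to 9.78. Other markers that are not saliva genes rose, among them Krt18 from 7.26 to 8.14, Krt8 from 7.37 to 7.92 and Col3a1 from 7.04 to 7.25. Of the 18 markers 11 had a positive difference with shEzh2.556, with 6 called higher and 0 lower. Of the 31 measured genes of this list 1 was called higher and 3 lower between hairpins, beside 5.50% and 4.53% of all genes. Grb10 and the ligand Igf1 were the other 2 called between hairpins, lower with shEzh2.781 by 0.52 (adjusted p = 0.0263) and by 0.50 (adjusted p = 0.0340). Both calls were lost under quantile normalization (adjusted p = 0.0728 and 0.214), and that of Igf1 under median centring (adjusted p = 0.0748). They were also lost in 4 and 3 of the 6 fits that left out 1 array, at an adjusted p of up to 0.148 and 0.150: for Grb10 without any 1 of the 4 lymphoma arrays, and for Igf1 without either shEzh2.781 array or without shEzh2.556 array 2.

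Against premalignant cells more genes of the IGF list were called lower than higher. Of 31 measured genes 2 were called higher over both hairpins, Igfbp7 and the stanniocalcin gene Stc1 by 1.13 and 0.40, and 8 lower, beside 5.60% and 9.61% of all genes, and leaving out 1 array gave 1 to 3 higher and 4 to 9 lower. The median difference was -0.10, beside 0.03 over all genes. With shEzh2.781 alone Igfbp7 was not called (0.33, adjusted p = 0.298). Its call over both hairpins was lost with the 4 lymphomas fitted as 1 group (adjusted p = 0.277). Taken by hairpin, 1 of the 31 was called higher and 5 lower with shEzh2.781, beside 10.8% of all genes in either direction. It was 1 higher and 9 lower with shEzh2.556, beside 18.2%. Irs1, the docking protein below the insulin and IGF1 receptors, had signals of 6.84 and 7.05 in premalignant cells, 6.01 and 5.82 with shEzh2.781 and 5.84 and 5.99 with shEzh2.556. It fell by 1.03 over both hairpins (SE 0.11, adjusted p = 5.95e-05). The binding protein gene Igfbp5 had signals of 6.97 and 7.37, 6.09 and 5.91, and 6.38 and 6.28 and was lower by 1.17 with shEzh2.781 (adjusted p = 0.000243). For both genes all 4 lymphoma arrays lay below the premalignant pair.

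Of 24 measured LIN28 and let-7 processing genes, 0 were called higher and 4 lower over both hairpins, beside 5.60% and 9.61% of all genes. Between hairpins 2 were higher and 0 lower, beside 5.50% and 4.53%. Their median difference was -0.14 against premalignant cells, beside 0.03 over all genes. The 4 were Prkra, a partner of Dicer, the Argonaute gene Ago1 and the silencing cofactors Tnrc6b and Tnrc6c, at differences of -0.34 to -0.36 with adjusted p from 0.0281 to 0.0389. All 4 calls were lost under median centring (adjusted p = 0.0558 to 0.0712). Leaving out 1 array left between 0 and 3 of the list called lower, and without premalignant array 2 the adjusted p of these 4 ranged from 0.138 to 0.252. Taken by hairpin, 0 of the 24 were called in either direction with shEzh2.781, beside 10.8% of all genes. With shEzh2.556 alone 0 were called higher and 4 lower (Prkra, Ago1, Ago4 and Tnrc6c), beside 18.2% of all genes in either direction. Ago4, another Argonaute, had signals of 7.31 and 7.50 in premalignant cells, 7.63 and 7.65 with shEzh2.781 and 6.72 and 6.99 with shEzh2.556. It was 0.79 higher with shEzh2.781 than with shEzh2.556 (SE 0.13, adjusted p = 0.00326) and passed in all 14 alternatives. Prkra was 0.43 higher (adjusted p = 0.0449), a call lost without any 1 of the 4 lymphoma arrays (adjusted p = 0.0868 to 0.185).

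Precursor genes of the let-7 family, a list drawn up after values had been seen, were on the array in 10 probe sets, which read host or precursor RNA and not the mature microRNA. Of the 10, 1 was called lower over both hairpins, beside 9.61% of all genes, namely Mirlet7d at -0.39 (adjusted p = 0.0396), with signals of 6.39 and 6.37, 5.93 and 6.07, and 5.81 and 6.16. It was called in neither hairpin alone. Between hairpins 1 was called lower, beside 4.53% of all genes, namely Mirlet7a-2 at -0.43 (adjusted p = 0.0416), with signals of 4.01 and 4.17, 3.87 and 4.07, and 4.42 and 4.39. Each call was lost in 4 of the 6 fits that left out 1 array, at an adjusted p of up to 0.182 for Mirlet7d and 0.220 for Mirlet7a-2. Both were also lost under quantile normalization (adjusted p = 0.0704 and 0.12) and median centring (adjusted p = 0.0779 and 0.0809).

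Reported let-7 targets moved both ways. Of 39 measured genes 3 were called higher and 7 lower over both hairpins, beside 5.60% and 9.61% of all genes, and the median difference was -0.02. Leaving out 1 array gave 1 to 3 higher and 4 to 7 lower. Besides Ccnd1, the higher genes were the nuclear receptor Nr6a1 by 0.35 and Plekhg6 by 0.31. The D-type cyclin Ccnd1 rose by 1.31 (SE 0.10, adjusted p = 4.43e-06), from 10.53 and 10.71 in premalignant cells to 12.00 and 11.99 with shEzh2.781 and 11.86 and 11.90 with shEzh2.556. Its relative Ccnd2 fell by 1.51 (SE 0.16, adjusted p = 6.33e-05), from 9.01 and 9.74 to 7.77 and 7.66, and 8.04 and 8.02. Their kinase partner Cdk6 fell by 1.35 (SE 0.10, adjusted p = 4.19e-06), from 11.21 and 11.37 to 10.10 and 10.04, and 9.76 and 9.89. Thrombospondin Thbs1, a matrix glycoprotein abundant in platelets, fell by 1.66 (adjusted p = 6.79e-05), and the mean of 8 platelet markers also went from 7.25 to 7.94 in premalignant cells to 6.48 to 6.86 in the lymphomas, a part that was not tested. All 4 of these passed in each of their 14 alternatives.

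Between hairpins 3 of the 39 let-7 targets were called higher with shEzh2.781 and 0 lower, beside 5.50% and 4.53% of all genes. Their median difference was 0.08, beside -0.07 over all genes. They were Igf1r, described above, the TGF-beta receptor Tgfbr1 and the eIF2 phosphatase subunit Ppp1r15b. Tgfbr1 was 0.61 higher (adjusted p = 0.0115), from 8.29 and 8.49 with shEzh2.556 to 9.09 and 8.90 with shEzh2.781, a call lost without shEzh2.781 array 1 or shEzh2.556 array 1 (adjusted p = 0.069 and 0.102). Ppp1r15b was 0.40 higher (adjusted p = 0.0466) and was called in 4 of 14 alternatives. It was lost without each of the 6 arrays in turn (adjusted p = 0.0519 to 0.236) and with the mean of its probe sets (adjusted p = 0.655).

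**Figure D3:**
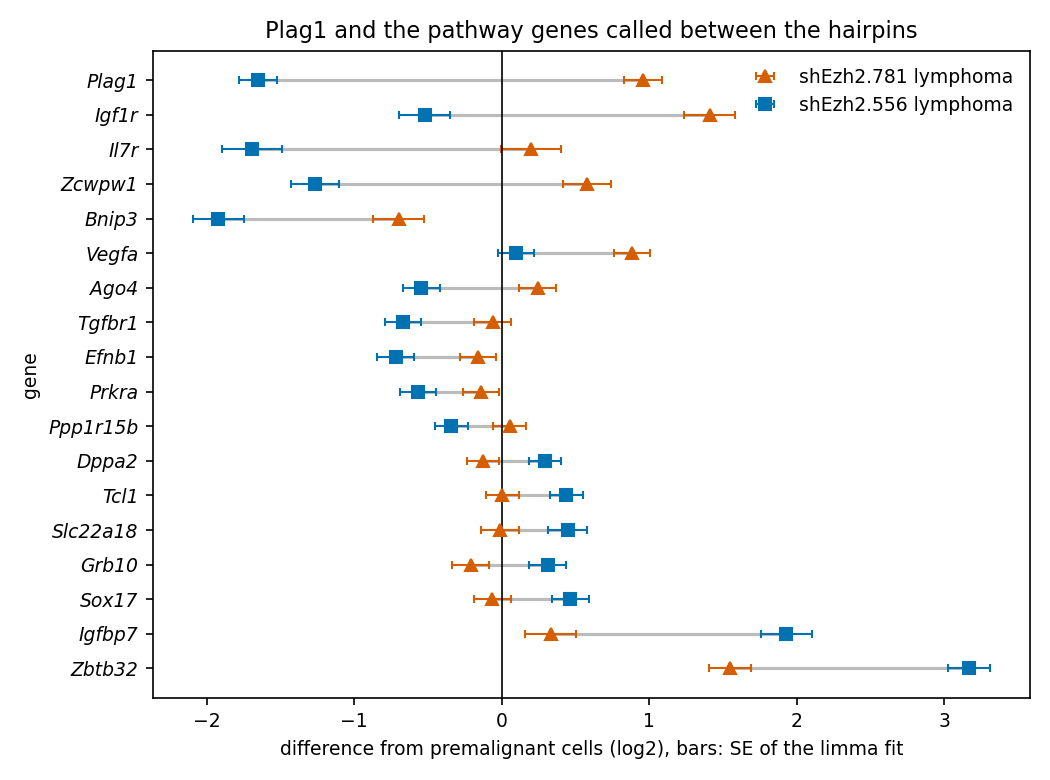
Difference from premalignant cells (log2, horizontal axis) of Plag1, which was not tested, and of listed genes called between the hairpins, in shEzh2.781 (triangles) and shEzh2.556 (squares) lymphomas, with SE bars of the limma fit. Grey lines join the 2 values of a gene. Igf1r at 1.41 and -0.52 spans premalignant cells as Plag1 does, while Bnip3 lies below them in both groups and Zbtb32 above them in both. The values of the 2 groups share the premalignant arrays.

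Messenger RNAs reported as bound by IGF2BP proteins were measured for 11 of 14. Over both hairpins 1 was called higher and 3 lower, beside 5.60% and 9.61% of all genes. Between hairpins limma called 0, beside 5.50% higher and 4.53% lower of all genes, with 1 at an unadjusted p under 0.05. The median between hairpins was -0.02, beside -0.07 over all genes. The survival gene Bcl2 rose by 0.90 (adjusted p = 0.00121), from 8.62 and 9.05 to 9.61 and 9.85 with shEzh2.781 and 9.56 and 9.93 with shEzh2.556. Cdk6, given above, the ubiquitin ligase subunit Btrc and the proliferation marker Mki67 fell. Btrc was lower by 0.51 (adjusted p = 0.00601, lost without premalignant array 2 at 0.0852 and with the lymphomas as 1 group at 0.0884) and Mki67 by 0.37 (adjusted p = 0.0257, lost in 5 of the 6 fits that left out 1 array, at 0.0559 to 0.137, under median centring at 0.0601 and with the lymphomas as 1 group at 0.087).

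Imprinted genes, the network in which Plagl1 and Igf2 are placed, had 1 of 34 called higher, Cdkn1c, and 7 lower over both hairpins, beside 5.60% and 9.61% of all genes. Leaving out 1 array gave 0 to 1 higher and 4 to 6 lower, and the Cdkn1c call (adjusted p = 0.0487) was lost in 5 of those 6 fits (adjusted p = 0.0516 to 0.343). Between hairpins 0 were called higher and 2 lower, beside 5.50% and 4.53%. Their medians were 0.05 and -0.18, beside 0.03 and -0.07 over all genes. Ddc, the aromatic amino acid decarboxylase gene next to Grb10, fell by 1.11 (SE 0.13, adjusted p = 0.000137), from 7.29 and 7.37 to 6.17 and 6.44, and 5.92 and 6.36. Sgce, a sarcoglycan gene, fell by 0.63 (adjusted p = 0.00154), and its imprinted neighbour Ppp1r9a by 0.71 with shEzh2.781 (adjusted p = 0.00203). Impact, a translation regulator, fell by 0.67 with shEzh2.556 (adjusted p = 0.00495), lost without premalignant array 1 or shEzh2.556 array 1 (adjusted p = 0.058 and 0.0604). Slc22a18, a transporter gene of the domain beside Igf2, was the second gene lower between hairpins, by 0.46 (adjusted p = 0.0456), a call lost without any 1 of the 4 lymphoma arrays (adjusted p = 0.0657 to 0.248) and under quantile normalization and median centring (adjusted p = 0.0701 and 0.0823). The paternally expressed Peg10, also on the PLAG target list, was 0.64 lower with shEzh2.781 (adjusted p = 0.00873), lost without premalignant array 1 (adjusted p = 0.0654) and under quantile normalization (adjusted p = 0.057).

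Of 31 other oncofetal and embryonic genes 1 was called higher and 1 lower over both hairpins, beside 5.60% and 9.61% of all genes. Taken by hairpin, 1 was higher and 1 lower with shEzh2.781, and 4 were higher and 1 lower with shEzh2.556. Of all genes 10.8% and 18.2% were called in either direction with these hairpins. Utf1, a chromatin factor of pluripotent cells, was 1.05 higher with shEzh2.781 (SE 0.18, adjusted p = 0.00252), from 6.11 and 6.44 in premalignant cells to 7.63 and 7.03. With shEzh2.556 it read 6.92 and 6.81 and was 0.59 higher (adjusted p = 0.0403), a call lost in 4 of the 6 fits that left out 1 array, each of the premalignant and shEzh2.556 arrays in turn (adjusted p = 0.0508 to 0.287). Tert, the telomerase catalytic subunit, fell by 0.97 (adjusted p = 3.88e-05), from 7.27 and 7.41 to 6.50 and 6.58, and 6.23 and 6.19. Between hairpins 0 were higher and 3 lower with shEzh2.781, beside 5.50% and 4.53% of all genes, namely the endoderm factor Sox17 by 0.53, the coactivator Tcl1 by 0.43 and the germ cell gene Dppa2 by 0.42 (adjusted p = 0.0242, 0.0347 and 0.0347). All 3 calls were lost under quantile normalization (adjusted p = 0.0768, 0.147 and 0.127). They were also lost without single lymphoma arrays, for Tcl1 and Dppa2 without any 1 of the 4 (adjusted p up to 0.235 and 0.163) and for Sox17 without shEzh2.781 array 1 or either shEzh2.556 array (adjusted p up to 0.134).

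Genes listed for fetal and B-1 type lymphopoiesis, the programme that LIN28B and ARID3A are known for, had 5 of 24 called higher (Zbtb32, Ahnak, Bhlhe41, Ptpn22 and Tsc22d3) and 8 lower over both hairpins, beside 5.60% and 9.61% of all genes, with a median of -0.15. The list also holds the progenitor factor Sox4 and genes such as Dntt, which is scarce in fetal B cells. Its counts therefore give no direction for that programme. Leaving out 1 array gave 3 to 5 higher and 6 to 10 lower. The call of Ptpn22 over both hairpins (adjusted p = 0.0378) was lost without premalignant array 1 or 2 or shEzh2.556 array 2 (adjusted p = 0.298, 0.125 and 0.109), under quantile normalization (0.0584), with the low-signal filter (0.0507), with robust moderation (0.266) and with the lymphomas as 1 group (0.447). The mean signal of 22 stem and progenitor markers was 7.15 to 7.32 in premalignant cells, 6.89 to 6.93 with shEzh2.781 and 7.08 to 7.10 with shEzh2.556, and the part of such cells in these counts was not tested. Dntt, the terminal transferase that adds bases at V(D)J junctions and is scarce in fetal B cells, fell by 2.64 (SE 0.16, adjusted p = 9.1e-07), from 7.38 and 8.11 to 5.04 and 5.03, and 5.16 and 5.19. Bhlhe41, a transcription factor of B-1a cells, rose by 1.65 (SE 0.11, adjusted p = 2.11e-06), from 8.80 and 8.52 to 10.29 and 10.46, and 10.19 and 10.32. The differences of these 2 genes between hairpins were -0.14 (adjusted p = 0.627) and 0.12 (adjusted p = 0.521). The recombinase gene Rag2 fell by 2.09 with shEzh2.556 (adjusted p = 7.14e-07) and by 1.22 with shEzh2.781 (adjusted p = 7.09e-05).

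Between hairpins 5 of these 24 genes were called higher with shEzh2.781 and 2 lower, beside 5.50% and 4.53% of all genes. The interleukin-7 receptor chain Il7r had signals of 10.95 and 11.68 in premalignant cells, 11.72 and 11.30 with shEzh2.781 and 9.66 and 9.58 with shEzh2.556, and the hairpins differed by 1.89 (SE 0.20, adjusted p = 0.000244). Zcwpw1, a histone methylation reader best known from meiosis, had 8.61 and 8.37, 8.80 and 9.33, and 7.28 and 7.16, with a difference of 1.84 (SE 0.16, adjusted p = 6.2e-05). Zbtb32, a zinc finger repressor of activated and memory B cells, rose in both lymphoma groups, from 7.39 and 7.36 to 8.85 and 8.99 with shEzh2.781 and 10.33 and 10.75 with shEzh2.556. It was 1.62 lower with shEzh2.781 than with shEzh2.556 (SE 0.14, adjusted p = 5.86e-05). The other 3 higher genes were Rag1, Rag2 and the progenitor factor Sox4, by 0.96, 0.88 and 1.49, and the other lower one was the phosphatase gene Ptpn22, by 1.26 (adjusted p = 0.0122, lost without shEzh2.556 array 2 at adjusted p = 0.087 and with robust moderation at 0.124).

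Across the 6 arrays, the genes whose signals ran most nearly with Plag1 were Dcbld1 (Pearson r = 0.990), Zcwpw1 (0.989), Map7d3 (0.980), Zcchc3 (0.971) and Tmem267 (0.970), among 548 genes with a spread of at least 0.5 times that of Plag1. With 2 arrays in each of 3 groups such a correlation mostly restates the order of the group means, and it is given as a description. Dcbld1 read 8.67 and 8.45 in premalignant cells, 9.37 and 9.26 with shEzh2.781 and 7.20 and 7.40 with shEzh2.556. Closest to Lin28b were Arsi (0.999), Rtn4r (0.995), Garem1 (0.992), Abcb10 (0.990) and Fzd6 (0.988), out of 5593 genes considered. Closest to Igf2bp3 were Galnt7 (0.996), Tmco3 (0.996), Kyat3 (0.993), Sntb2 (0.992) and Galnt1 (0.991), out of 8520. None of these 15 genes was among the closest to more than 1 of them. Between the 3 themselves r was 0.601 for Plag1 and Lin28b, 0.614 for Plag1 and Igf2bp3 and 0.795 for Lin28b and Igf2bp3.

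**Figure D4:**
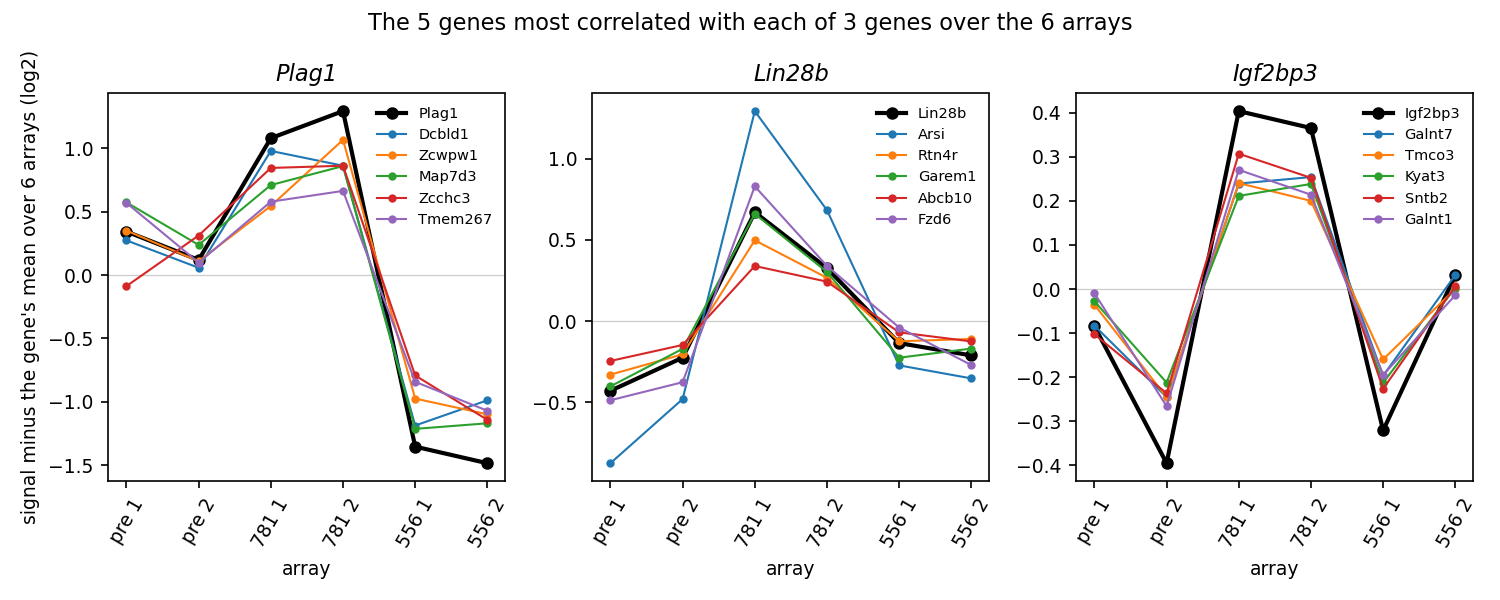
Signal minus the mean of the gene over the 6 arrays (log2, vertical axis, scaled per panel) on each array (horizontal axis) for Plag1, Lin28b and Igf2bp3 (black) and the 5 genes most correlated with each (colours). Lines only join the points of a gene, since arrays have no order. The Plag1 panel shows a high pair, a middle pair and a low pair, the Lin28b panel a high shEzh2.781 pair, and the Igf2bp3 panel a low premalignant array 2 and a low shEzh2.556 array 1.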

How the data were processed

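Total RNA from 6 mouse samples was hybridised to Affymetrix Mouse Gene 1.0 ST arrays, per the labels. The deposited values, 1 for each probe set, had been normalized by the authors and are taken as log2, a scale inferred from their range of 2.30 to 14.22. How background was corrected and arrays normalized is not given in the sources used here, nor is a genome build. The characteristics call the control cells normal, while titles and source call them premalignant, which was used. Of 35512 probe sets 21789 carried 1 symbol in the platform annotation, 1621 several and 12102 none, and only the first kind was used, giving 19938 genes. For the 999 genes with several probe sets the one with the highest mean was taken.

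One limma 3.58.1 fit under R 4.3.3 took in all 6 arrays as 3 group means without covariates, with 8.51 prior and 3 residual degrees of freedom. Benjamini-Hochberg adjustment ran over all 19938 genes, with calls at 0.05. The fit was tested on simulated data. Tables were made with pandas 2.3.3 and numpy 2.4.6 under Python 3.11.15, and figures with matplotlib 3.10.9. Precision is limited by how few arrays there are.

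The genes followed, the lists and the tests were chosen with earlier results of these data known. From each list up to 4 called genes with the smallest p over the 3 contrasts against premalignant cells and up to 3 between hairpins could be named. Other named list genes were chosen after their values were seen: Igf1, Lin28a, Tnrc6b, Rag1, Sox4, Ptpn22, Stc1, Nr6a1, Plekhg6, Cdkn1c, Ahnak, Tsc22d3, Mirlet7d and Mirlet7a-2. Likeness was ranked by Pearson correlation, without predicted genes, receptor segments, olfactory and vomeronasal receptors and small RNAs. Alternatives were quantile normalization, median centring, a low-signal filter, the mean of a gene's probe sets, a variance trend, robust moderation, only the groups compared, a replicate block and leaving out each array. Promoter and microRNA sequences came from RefSeq tables (GRCm38.p6).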

Additional observations from a re-analysis of the deposited data

Results flagged for a closer look

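Plag1 (2.61, shEzh2.781 minus shEzh2.556, log2) and Igf2bp1 (-0.26) had both arrays of one hairpin above and both arrays of the other below the premalignant pair. For Igf2bp1 the lower side barely parted, with 5.9989 on the nearer shEzh2.781 array and 6.0007 on the nearer premalignant array. Its second probe set overlapped there, with 4.81 and 4.74 beside 4.79 and 4.92 in premalignant cells. Under quantile normalization the Igf2bp1 difference between hairpins was -0.08. For Plag1 and Igf2bp1 the difference between hairpins was not tested. The premalignant arrays are shared by both comparisons.

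The remaining results passed the limma test of the difference between hairpins itself in the main fit. The genes named here are a selection by smallest p within lists. Igf1r (1.93), Il7r (1.89), Zcwpw1 (1.84), Bnip3 (1.22) and Vegfa (0.79) were higher with shEzh2.781. So were Ago4 (0.79), Tgfbr1 (0.61), Efnb1 (0.56), Prkra (0.43) and Ppp1r15b (0.40). Those lower with shEzh2.781 were Zbtb32 (-1.62), Igfbp7 (-1.60), Sox17 (-0.53), Grb10 (-0.52), Slc22a18 (-0.46), Tcl1 (-0.43) and Dppa2 (-0.42). Other listed genes called between hairpins are given above, among them Sox4, Rag1 and Rag2 (higher) and Ptpn22, Igf1 and Mirlet7a-2 (lower). Of the selected calls, those of Ppp1r15b, Slc22a18, Tcl1, Dppa2, Prkra, Grb10, Sox17, Tgfbr1 and Efnb1 were lost under other settings or without single arrays. Groups of 2 arrays were too small to look for single arrays standing apart.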

How the results depend on the processing

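Genes called in lymphomas against premalignant cells numbered 3033, and 1091 when the 4 lymphomas were fitted as 1 group, where the spread between hairpins enters the error. That fit left 0 higher and 0 lower of the LIN28 and PLAG lists, 1 and 4 of the let-7 targets, 0 and 4 of the IGF list, 0 and 2 of the imprinted, 1 and 1 of the IGF2BP-bound, 0 and 1 of the oncofetal and 3 and 6 of the fetal lymphopoiesis genes. Leaving out 1 array gave 1721 to 2833. For shEzh2.781 against premalignant cells 2161 genes were called, and 1103 to 2048 with 1 array left out. For shEzh2.556 the count was 3635, and 1949 to 3669. Between hairpins it was 2000, and 718 to 2085. Median centring changed the split of higher and lower calls from 1117 and 1916 to 1682 and 1530 for both hairpins, and from 917 and 1244 to 1733 and 841 for shEzh2.781.

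Same-numbered arrays of different groups showed little shared deviation (correlations -0.09, -0.12 and 0.06). That gave no sign of pairing by number, though correlations over genes cannot exclude it. With the replicate block the 4 counts were 2889, 2078, 3371 and 1783, and the block ended the hairpin calls of Prkra, Ppp1r15b, Slc22a18, Tcl1, Dppa2 and Mirlet7a-2, the calls over both hairpins of Prkra, Tgfbr1, Igf2r and Cdkn1c, and those with shEzh2.556 of Ppp1r9a and Mki67. No result run turned its direction among called values. Over the alternatives other than leaving out an array, 8 untested differences between hairpins moved by more than the replicate SD, those of Igf2, Igf2bp1, Hmga2 and Arid3a under quantile normalization and median centring (Arid3a 0.12, then 0.03 and 0.24). How far dim signals such as those of Lin28b, or of Plag1 with shEzh2.556, lie above background was not measured.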
